A study of Mus musculus with 24 samples.

Results

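The collagen genes of newborn mice were followed in liver and hindleg muscle, in pups whose mothers ate diets that differed in protein and taurine. A gene was counted as a collagen gene when its single symbol in the array annotation was Col, a type number, a and a chain number, which gave 42 of 18193 genes. Of these, 27 had more than 1 probe set, and each gene was then represented by the one with the highest average over its tissue's 12 arrays. By class there were 7 fibrillar, 9 basement membrane, 8 cartilage, 6 fibril-associated and 5 beaded filament genes, and 7 others. The animals were C57BL/6 pups on day 0 after birth, and the mothers were on their diets from day 1 of pregnancy. LPtau mothers had 8% casein and 1% taurine in the drinking water, LP mothers had 8% casein, NPtau mothers had 20% casein and 1% taurine in the water, and NP mothers had 20% casein. Each diet had 3 arrays per tissue, 24 in all, and this number limits the precision. The arrays are labelled as biological replicates, but whether the 3 pups of a diet had different mothers is not given, so the p-values reflect only how far these samples spread, which may be partly technical.

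Collagens are made of 3 chains wound into a triple helix. Types I, III and V assemble into the fibrils that give skin, tendon, vessel walls and organ capsules their strength, and fibroblasts are their main source, with stellate cells as a further source in liver. Type IV forms the sheet of the basement membrane under endothelium and around each muscle fibre. Types II, IX, X and XI belong to cartilage, type VI forms beaded filaments around muscle fibres and other cells, and type XIV sits on the surface of fibrils.

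Expression is given as the log2 value that the authors obtained with RMA, a method that turns the probes of a probe set into a single value per array. Liver and muscle arrays were normalized separately, so levels are not compared between the tissues. Array medians ran from 5.35 to 5.39 for liver and from 4.95 to 5.04 for muscle. Some arrays had a narrower range of values. Muscle LPtau replicate 1 had quartiles of 4.03 and 6.89, against 3.81 to 3.90 and 7.05 to 7.21 in the other muscles. Liver LP replicates 2 and 3 and NPtau replicate 2 had 4.37 to 4.38 and 7.23 to 7.29. The other livers had 4.27 to 4.33 and 7.36 to 7.46. The part of this in the diet differences was not tested. Hepatocyte markers averaged 13.85 to 14.34 over the liver arrays, and skeletal muscle markers averaged 13.04 to 13.77 over the muscle arrays. In muscle, LP replicate 1 and LPtau replicate 1 stood apart, with a median correlation with the other arrays of 0.957 and 0.966, against at least 0.979 for the others. In liver the lowest were LP replicate 3 with 0.975 and NPtau replicate 2 with 0.976. Sex was read from the level of Xist against that of Y-linked genes. By this reading, females made up 1 of 3 LPtau, 2 of 3 LP, 2 of 3 NPtau and 1 of 3 NP arrays in each tissue. Of the 42 collagen genes, 14 in liver and 32 in muscle had a mean above that of the median gene of the tissue. This split describes probe set signals and does not rank transcripts.

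The effect of low protein on liver collagens was measured as LP against NP. Col14a1, which codes for the fibril-associated type XIV collagen, was the only one of the 42 genes that passed an adjusted p of 0.05 (2.38% of the collagen genes, against 2.34% of all genes). Its values were 8.89, 9.44 and 9.55 in LP livers and 10.01, 10.25 and 10.62 in NP livers. All 3 LP values lay below all 3 NP values. Col14a1 fell by 1.00 on the log2 scale in LP liver (SE 0.19, n = 3 per group, limma adjusted p = 0.0303), and its 3 probe sets all had this sign. The call ended when any of LP replicates 2 and 3 or NP replicates 1 to 3 was left out (adjusted p from 0.0599 to 0.108 with limma), and without liver LP replicate 3 and NPtau replicate 2 the difference in Col14a1 was -1.13 (adjusted p = 0.0585 with limma). Averaged over its probe sets, Col14a1 differed by -0.55 (adjusted p = 0.162 with limma).

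The fibrillar chains of types I, III and V were lower on average in LP than in NP liver, without passing the test. Col1a1 and Col1a2 code for the chains of type I collagen, the main fibril former of most tissues, and Col3a1 codes for type III, which is prominent in soft organs and vessels. Col3a1 was at 9.71, 10.81 and 10.65 in LP livers and at 11.26, 10.89 and 10.93 in NP livers. The groups did not overlap for Col3a1 (difference -0.64, SE 0.40, limma adjusted p = 0.362). Col1a1 stood at 7.98, 8.91 and 8.92 in LP livers against 9.28, 8.62 and 8.74 in NP livers, and these values overlapped (difference -0.28, SE 0.44, limma adjusted p = 0.735). Col1a2 had a difference of -0.38 (SE 0.39), also with overlapping groups. Type V collagen starts fibrils and sets their width. Its chains Col5a1 and Col5a2 differed by -0.43 (SE 0.16, limma adjusted p = 0.156) and -0.46 (SE 0.25, limma adjusted p = 0.295), and for each the 3 LP values lay below the 3 NP values. Of the 7 fibrillar genes 5 had a negative difference, with a median of -0.38. Without LP replicate 1, the lowest LP liver for these chains except Col5a1, the difference was 0.038 for Col1a1, -0.30 for Col3a1 and -0.22 for Col5a2.

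Col4a1 and Col4a2 code for the chains of the most widespread basement membrane network. They lie side by side on opposite strands, and the windows around their starts in the RefSeq table (build GRCm38.p6) share 78 bases. The annotated starts are so placed that the first 22 bases of the one transcript are the complement of the first 22 of the other. This stretch is shown because both genes begin in it. Capitals mark a GC box (GGGCGG), and the stretch is chr8:11312805-11312826 on the plus strand.
Col4a1 and Col4a2: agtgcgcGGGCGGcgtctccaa
Col4a1 was at 9.82, 10.05 and 9.91 in LP livers and at 10.40, 10.58 and 10.20 in NP livers (difference -0.47, SE 0.19, limma adjusted p = 0.174). Col4a2 was at 8.17, 8.45 and 8.36 in LP livers and at 8.76, 8.66 and 8.88 in NP livers (difference -0.44, SE 0.20, limma adjusted p = 0.216). For each gene all LP values lay below all NP values. The other type IV chains differed by -0.15 to 0.10 in the probe sets used here. The second probe set of Col4a5, with the lower mean in liver, differed by -0.87. In LPtau against LP liver it differed by 0.85, and it was not tested in liver alone.

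Other collagen genes leaned the opposite way. Of the 14 genes above the median gene 2 had a positive difference (14.3%, median -0.33), against 44.6% of all genes above the median gene (median -0.05). Of the 28 collagen genes below the median gene 25 had a positive difference (89.3%, median 0.17), against 72.4% of all such genes (median 0.11). Col25a1, a membrane-spanning collagen of neurons, was at 5.97, 6.43 and 6.44 in LP livers against 5.78, 5.81 and 5.77 in NP livers, with no overlap (difference 0.49, SE 0.15, limma adjusted p = 0.1004). Col13a1, a membrane-spanning collagen of cell adhesion sites, was at 5.65, 6.18 and 6.61 in LP livers and at 5.40, 5.30 and 5.58 in NP livers, with no overlap (difference 0.72, SE 0.26, limma adjusted p = 0.140). At an unadjusted p under 0.05 there were 13 collagen genes (31%, against 22.7% of all genes), of which 9 were higher in LP (21.4%, against 13.1% of all genes) and 4 were lower (9.52%, against 9.53% of all genes). The groups did not overlap for 11 collagen genes higher in LP (26.2%, against 18.3% of all genes) and for 6 lower ones (14.3%, against 10.9%). Cartilage collagens, which liver cells are not known for, had a positive difference in 6 of 8 genes with a median of 0.20, and those 6 genes lay below the median gene.

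**Figure D1:**
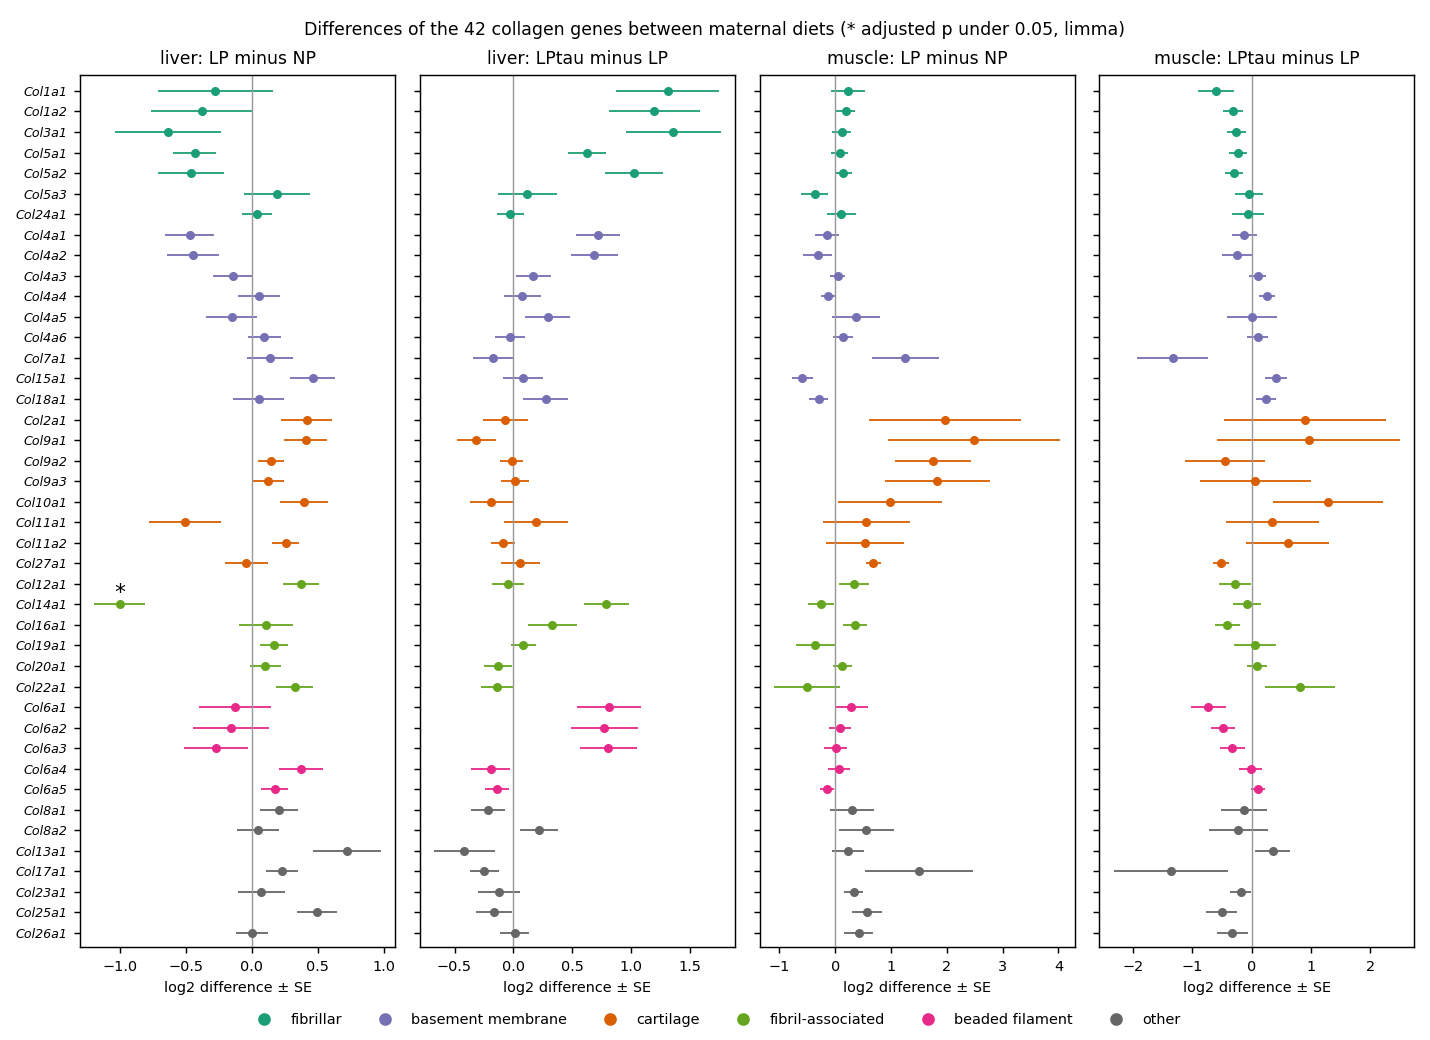
Log2 differences (x axis) of the 42 collagen genes (y axis, grouped and coloured by class) for LP minus NP and LPtau minus LP in liver and in muscle, each with the standard error of limma as a bar. The asterisk marks Col14a1 in liver, the one gene with an adjusted p under 0.05, and the x axes differ in scale between panels.

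Taurine given with the low protein diet was set against low protein alone as LPtau minus LP. In liver no collagen gene passed the adjusted threshold, where 0.066% of all genes did. All 14 collagen genes above the median gene had a positive difference with a median of 0.78, while 62.2% of all genes above the median gene were positive (median 0.07). The 28 collagen genes below the median gene had a median of -0.06, and 10 of them were positive (35.7%). This was near the share of all genes below the median gene (34.6% positive, median -0.05). At an unadjusted p under 0.05 there were 11 collagen genes (26.2%, against 8.48% of all genes). All 11 were higher in LPtau (against 5.16% of all genes) and 0 were lower (against 3.32%). The 3 LPtau values lay above the 3 LP values for 11 genes (26.2%, against 6.77% of all genes), and below them for 1 gene (2.38%, against 7.01%). In these whole-organ samples, fewer cells of a type and less RNA per cell cannot be told apart.

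The fibrillar genes had the largest differences among the liver collagens. Col3a1 was at 10.91, 11.97 and 12.37 in LPtau livers and at 9.71, 10.81 and 10.65 in LP livers. Col1a1 was at 9.002, 10.12 and 10.62 in LPtau livers and at 7.98, 8.91 and 8.92 in LP livers. Col1a2 was at 10.26, 11.33 and 11.57 in LPtau livers and at 9.56, 10.10 and 9.91 in LP livers. In each of these 3 genes all LPtau values lay above all LP values, and LPtau replicate 1 lay close to the highest LP value. The differences were 1.36 for Col3a1 (SE 0.40, limma adjusted p = 0.364), 1.31 for Col1a1 (SE 0.44, limma adjusted p = 0.434) and 1.20 for Col1a2 (SE 0.39, limma adjusted p = 0.425). Col5a2 was at 9.41, 9.997 and 10.18 in LPtau livers and at 8.36, 9.06 and 9.09 in LP livers, and its p was the smallest of the collagen genes in this comparison (limma adjusted p = 0.220). For Col5a1 the values were 9.64, 10.08 and 10.23 in LPtau livers and 9.39, 9.51 and 9.18 in LP livers (difference 0.62, SE 0.16, limma adjusted p = 0.253). Col5a3 and Col24a1, the fibrillar genes below the median gene, differed by 0.12 (SE 0.25) and -0.03 (SE 0.11). Of the 7 fibrillar genes 6 were positive, with a median of 1.02.

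The spread of the type I and type III genes in liver was wide, and they were also high in a liver outside the LPtau group. In NPtau livers Col1a1 was at 9.10, 10.13 and 8.91, Col1a2 at 10.37, 11.38 and 9.92, and Col3a1 at 11.26, 11.99 and 10.86. NPtau replicate 2 thus matched LPtau replicates 2 and 3, while the other NPtau livers lay in the range of the NP livers or next to it. The SD between arrays of a diet was 0.62 for Col1a1, 0.57 for Col3a1 and 0.55 for Col1a2, against a median of 0.19 over all genes. Fibroblast markers followed the same arrays. Their mean over 11 genes, taken from the mean of the NP livers, was -0.02, 0.49 and 0.56 in LPtau livers, -0.30, -0.19 and -0.14 in LP livers, and 0.10, 0.36 and -0.08 in NPtau livers. In LPtau against LP liver 10 of 11 fibroblast markers had a positive difference (median 0.55) and 0 were called. The mean of 8 smooth muscle and pericyte markers was -0.14, 0.22 and 0.50 in LPtau livers, -0.80, -0.45 and -0.42 in LP livers, and -0.39, 0.60 and -0.04 in NPtau livers. The mean of 7 mesothelium markers was -0.10, 0.07 and 0.41 in LPtau livers, -0.57, -0.06 and -0.36 in LP livers, and 0.10, 0.69 and -0.38 in NPtau livers. Hepatic stellate cell markers had another pattern. The mean of 10 such genes was -0.35, -0.23 and -0.01 in LPtau livers and -0.42, -0.48 and -0.51 in LP livers. It was 0.09, -0.20 and -0.03 in NPtau livers and -0.15, 0.15 and -0.01 in NP livers. In LPtau against NP liver 3 of 10 stellate markers were positive, against 11 of 11 fibroblast markers. The part of these cells in the collagen differences was not tested.

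For the fibrillar genes that moved together across these livers, the 120 bases before the annotated start of Col1a2 and of Col3a1 are shown, from the RefSeq table of build GRCm38.p6. Capitals mark a CCAAT box (CCAAT, or ATTGG on the other strand), a GC box (GGGCGG, or CCGCCC) and a TATA box (TATAAA, or TTTATA). Col1a2 is at chr6:4505498-4505617 and Col3a1 at chr1:45311418-45311537, each on the plus strand.
Col1a2: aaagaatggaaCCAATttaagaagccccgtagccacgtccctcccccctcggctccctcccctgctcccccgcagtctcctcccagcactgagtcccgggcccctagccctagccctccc
Col3a1: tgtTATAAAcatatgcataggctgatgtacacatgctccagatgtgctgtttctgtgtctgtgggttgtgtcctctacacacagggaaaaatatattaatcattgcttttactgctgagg
The table held 36 start windows of 33 of the 42 genes, each from 250 bases before to 50 bases after a start. A CCAAT box lay in 36.1% of the collagen windows and in 37.4% of all 32851 windows, and a TATA box lay in 13.9% and 13.6%. A GC box lay in 61.1% of the collagen windows and in 35.7% of all windows, in 3 of 5 fibrillar, 6 of 9 basement membrane and 4 of 7 cartilage windows. The motifs do not overlap in letters, both strands were searched, and a match describes the sequence and is not a measured binding site.

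**Figure D2:**
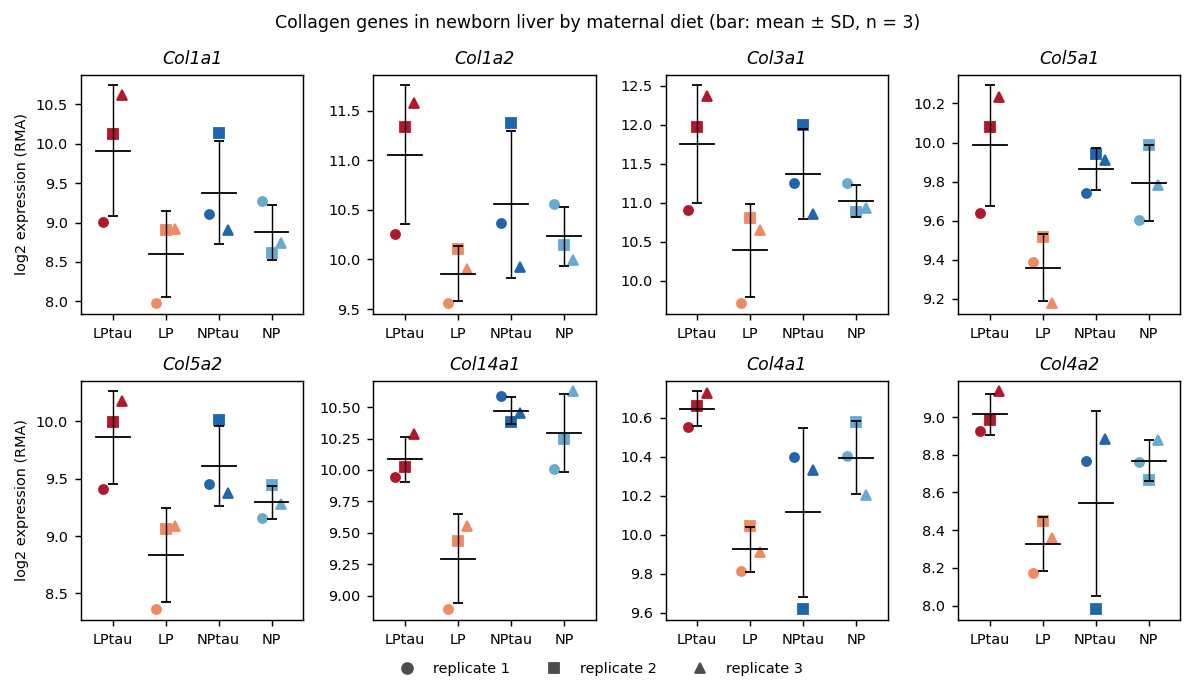
Log2 expression (y axis) of 8 collagen genes in each liver array by maternal diet (x axis), where symbols are replicates 1 to 3 and bars are mean ± SD. NPtau replicate 2 is high for Col1a1, Col1a2 and Col3a1, at 10.13, 11.38 and 11.99, and low for Col4a1 and Col4a2, at 9.62 and 7.98.

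The type IV chains and the type VI chains were also higher on average in LPtau than in LP liver. Col4a1 was at 10.55, 10.66 and 10.73 in LPtau livers, at 9.82, 10.05 and 9.91 in LP livers, and at 10.40, 9.62 and 10.33 in NPtau livers. Col4a2 was at 8.93, 8.98 and 9.14 in LPtau livers, at 8.17, 8.45 and 8.36 in LP livers, and at 8.77, 7.98 and 8.88 in NPtau livers. For both genes LPtau lay above LP without overlap, and NPtau replicate 2 was the lowest of all 12 livers, the reverse of its place for the type I and type III genes. The differences between LPtau and LP were 0.72 for Col4a1 (SE 0.19, limma adjusted p = 0.253) and 0.69 for Col4a2 (SE 0.20, limma adjusted p = 0.353). Their arrays were close together, and the SD within the LPtau group was 0.09 for Col4a1, against 0.75 for Col3a1. Endothelial markers, 12 genes of the cells that lie on much of this membrane, averaged -0.11, -0.06 and 0.11 in LPtau livers, -0.50, -0.49 and -0.36 in LP livers, 0.12, -0.24 and 0.01 in NPtau livers, and -0.13, 0.06 and 0.07 in NP livers, each taken from the NP mean. LP lay below every other diet for these markers, and their part in the type IV values was not tested. In LP against NP liver 4 of the 12 endothelial markers fell (Cdh5, Esam, Lyve1 and Pecam1, by 0.80 to 1.11) and 8 did not pass, where 223 of all 18193 genes fell.

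Col6a1, Col6a2 and Col6a3 code for the common chains of type VI collagen, and each lay above LP in all LPtau livers. Col6a1 was at 8.20, 8.91 and 9.03 in LPtau livers and at 7.56, 7.99 and 8.15 in LP livers (difference 0.81, SE 0.27, limma adjusted p = 0.435). Col6a2 and Col6a3 differed by 0.77 (SE 0.29, limma adjusted p = 0.489) and 0.81 (SE 0.24, limma adjusted p = 0.382). Col6a4 and Col6a5, both below the median gene, differed by -0.19 (SE 0.17) and -0.14 (SE 0.10). Col14a1 was at 9.95, 10.02 and 10.28 in LPtau livers, at 8.89, 9.44 and 9.55 in LP livers, at 10.59, 10.38 and 10.45 in NPtau livers, and at 10.01, 10.25 and 10.62 in NP livers. Only the LP livers lay below 9.60 for Col14a1, and LPtau differed from LP by 0.79 (SE 0.19, limma adjusted p = 0.222). Col18a1, whose end fragment is endostatin, was at 11.77, 11.72 and 11.40 in LPtau livers and at 11.28, 11.41 and 11.38 in LP livers, which overlapped (difference 0.27, SE 0.19, limma adjusted p = 0.720).

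The remaining liver comparisons had no called collagen gene and no called gene at all (0% of all genes). For LPtau against NP, 7 collagen genes were higher at an unadjusted p under 0.05 (16.7%, against 4.65% of all genes) and 0 were lower (against 2.12%). With no overlap 13 were higher (31% of the collagen genes, against 12.2% of all genes) and 0 were lower (against 4.63%). Col15a1, a collagen of the outer face of basement membranes, was at 5.13, 5.16 and 5.63 in LPtau livers and at 4.75, 4.87 and 4.67 in NP livers (difference 0.55, SE 0.17, limma adjusted p = 0.602). Col12a1, a fibril-associated collagen of tendon and ligament, was at 6.44, 6.55 and 6.40 in LPtau livers and at 6.21, 6.26 and 5.93 in NP livers (difference 0.33, SE 0.14, limma adjusted p = 0.714). Col1a1 differed by 1.04 (SE 0.44, limma adjusted p = 0.718) with overlapping groups. For NPtau against NP, 0 collagen genes had an unadjusted p under 0.05 (against 2.75% of all genes). Col12a1 was the only one with no overlap, at 6.38, 6.50 and 6.26 in NPtau livers against the NP values above (2.38%, against 5.44% of all genes higher and 2.4% lower; difference 0.25, SE 0.14, limma adjusted p = 0.995). Col12a1 has 4 probe sets, of which 1 is used here. Over the alternative fits its difference went down to 0.012 in NPtau against NP and to 0.10 in LPtau against NP. Col8a1, a short-chain collagen of vessel walls, was at 4.78, 5.20 and 5.31 in NPtau livers and at 4.80, 4.88 and 4.86 in NP livers (difference 0.25, SE 0.15).

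Whether low protein acted differently with and without taurine was tested as the interaction, LPtau minus NPtau less LP minus NP. In liver no collagen gene and no gene of the array passed, and 5 collagen genes had an unadjusted p under 0.05 (11.9%, against 8.46% of all genes). Of these, 4 were positive (9.52%, against 4.06% of all genes) and Col8a1 was negative (2.38%, against 4.4%). The smallest p-values belonged to the type IV pair, with an interaction of 1.00 for Col4a1 (SE 0.27, limma adjusted p = 0.434) and 0.92 for Col4a2 (SE 0.28, limma adjusted p = 0.535). Col5a1 had 0.55 (SE 0.23, limma adjusted p = 0.582). Between LPtau and NPtau livers Col4a1 and Col4a2 differed by 0.53 (SE 0.19) and 0.47 (SE 0.20), with no overlap and a limma adjusted p of 0.999 for both. They were the 2 collagen genes higher in LPtau with no overlap (4.76%, against 5.68% of all genes), and Col14a1 was the one lower (-0.39, SE 0.19; 2.38%, against 3.2%). With Col18a1, which differed by 0.46 (SE 0.19), they were also the 3 genes with an unadjusted p under 0.05 (7.14%, against 4.74% of all genes, of which 3.48% were higher). Without the low NPtau replicate 2, Col4a1 and Col4a2 differed by 0.28 and 0.19 between LPtau and NPtau, and their interactions were 0.75 and 0.63.

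The enzymes and partners that handle collagen were read from lists in 5 steps of its life. In LP against NP liver 2.34% of all genes passed, 202 of them higher and 223 lower. Of 20 genes of collagen folding and crosslinking none passed there (median -0.14, 8 positive). Serpinh1, the chaperone that is specific to procollagen, had the smallest p (-1.28, SE 0.31, limma adjusted p = 0.0543), and it differed by 1.19 in LPtau against LP (SE 0.31, limma adjusted p = 0.253). Of 6 procollagen cleavage genes Pcolce2, which enhances removal of the C-propeptide, fell by 1.68 in LP liver (SE 0.35, limma adjusted p = 0.0395) and 5 did not pass. Pcolce2 differed by 1.53 in LPtau against LP liver (SE 0.35, limma adjusted p = 0.185). Of 13 genes of collagen breakdown Timp4, an inhibitor of matrix metalloproteinases, rose by 0.55 in LP liver (SE 0.12, limma adjusted p = 0.0447) and 12 did not pass. None of 8 collagen receptor genes and none of 11 genes of TGF-beta signalling, a main inducer of collagen genes, passed in LP against NP liver. In LPtau against LP liver 0 genes of the 5 lists were called, and all 11 TGF-beta genes had a positive difference (median 0.30), with the smallest p for the ligand Tgfb3 (1.75, SE 0.38, limma adjusted p = 0.169). Hepatic stellate cell markers had a negative difference in 9 of 10 genes in LP against NP liver (median -0.35), of which Colec11 fell by 0.90 (SE 0.17, limma adjusted p = 0.0303).

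In hindleg muscle no collagen gene passed the adjusted threshold in any of the 6 contrasts. For LP against NP 0.126% of all genes passed, and 3 collagen genes had an unadjusted p under 0.05 (7.14%, against 10.8% of all genes). Of these, 2 were higher in LP (4.76%, against 4.54% of all genes) and 1 was lower (2.38%, against 6.22%). The gene nearest to the threshold was Col27a1, a fibril-forming collagen of cartilage and of the developing skeleton. It was at 8.92, 8.61 and 8.68 in LPtau muscles, at 9.20, 9.10 and 9.47 in LP muscles, at 8.38, 8.11 and 8.24 in NPtau muscles, and at 8.55, 8.54 and 8.63 in NP muscles. The LP values lay above those of every other diet, and the NPtau values lay below those of every other diet. The difference in LP against NP was 0.69 (SE 0.13, limma adjusted p = 0.0767), in LPtau against LP -0.52 (SE 0.13, limma adjusted p = 0.166), in LPtau against NPtau 0.49 (SE 0.13, limma adjusted p = 0.737) and in NPtau against NP -0.33 (SE 0.13, limma adjusted p = 1). The second probe set of Col27a1 had the same sign in the first and the second of these comparisons, and the opposite sign in the others. Without LP replicate 1 and LPtau replicate 1, Col27a1 passed in LP against NP (0.71, limma adjusted p = 0.0361).

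Col15a1 had the next smallest p in LP against NP muscle. It was at 7.31, 7.84 and 8.01 in LP muscles and at 8.16, 8.41 and 8.36 in NP muscles, with no overlap (difference -0.59, SE 0.19, limma adjusted p = 0.259). LP replicate 1, which stood apart, was the lowest, and without it and LPtau replicate 1 the difference in Col15a1 was -0.39 (limma adjusted p = 0.192). Of the other basement membrane genes Col4a2 and Col18a1 were lower in LP with no overlap, with differences of -0.31 (SE 0.26) and -0.30 (SE 0.16). The mean of 12 endothelial markers, taken from the NP mean, was -0.98, -0.41 and -0.11 in LPtau muscles, -0.36, -0.58 and -0.22 in LP muscles, -0.08, -0.34 and 0.21 in NPtau muscles, and 0.09, 0.06 and -0.15 in NP muscles. In LP against NP 11 of 12 endothelial markers (median -0.35) and 7 of 8 smooth muscle and pericyte markers (median -0.34) were negative, and 0 of either list were called. Their part in the basement membrane values was not tested. In all, 1 collagen gene was higher with no overlap (2.38%, against 7.99% of all genes) and 3 were lower (7.14%, against 11.6%).

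**Figure D3:**
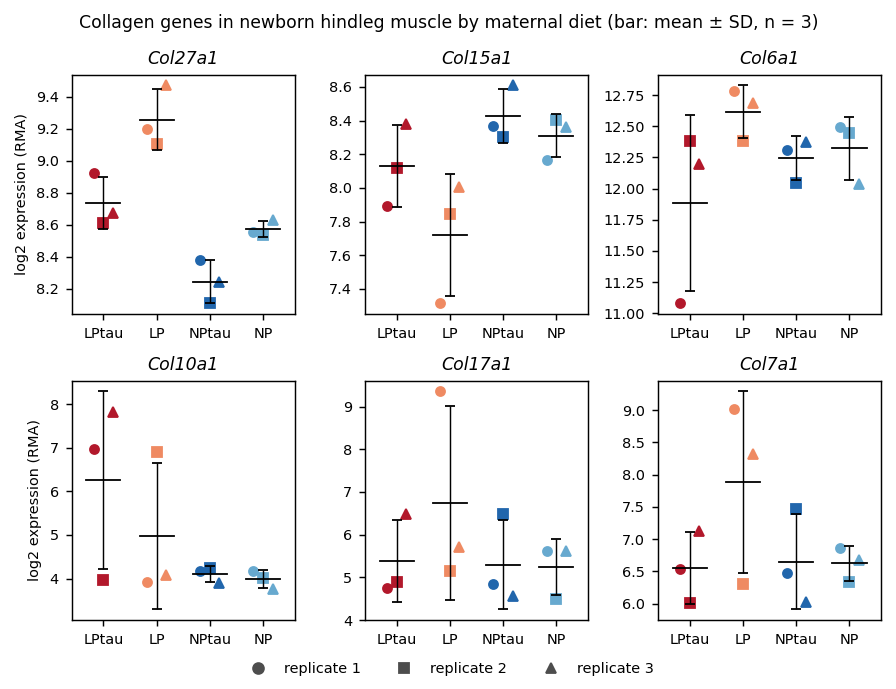
Log2 expression (y axis) of 6 collagen genes in each hindleg muscle array by maternal diet (x axis), where symbols are replicates 1 to 3 and bars are mean ± SD. Col27a1 is highest in LP, Col6a1 is low in LPtau replicate 1 at 11.08, and Col10a1, Col17a1 and Col7a1 are each high in a few arrays only.

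The main fibrillar, type IV and type VI chains of muscle lay close together in most arrays. LPtau replicate 1 stood apart for Col1a1, Col4a2 and Col6a1, and NPtau replicate 2 was the lowest for Col3a1. Col4a5 was wider, with an SD between arrays of a diet of 0.60, against a median of 0.22 over all genes. Col3a1 was at 14.04, 14.27 and 14.36 in LPtau muscles, at 14.65, 14.30 and 14.51 in LP muscles, at 14.31, 13.83 and 14.43 in NPtau muscles, and at 14.37, 14.38 and 14.37 in NP muscles. Col1a1 was at 12.65, 13.89 and 14.05 in LPtau muscles and at 14.28, 14.09 and 14.01 in LP muscles. Col6a1 was at 11.08, 12.38 and 12.19 in LPtau muscles and at 12.78, 12.38 and 12.69 in LP muscles. LPtau replicate 1 was the lowest of the 12 muscles for Col1a1 and Col6a1. For LPtau against LP 0.022% of all genes were called, and 4 collagen genes were lower at an unadjusted p under 0.05 (9.52%, against 6.84% of all genes) and 0 were higher (against 6.05%). With no overlap 4 were lower (9.52%, against 7.09% of all genes). The 4 genes with the unadjusted p under 0.05 were Col27a1, Col6a1 (-0.73, SE 0.29, limma adjusted p = 0.332), Col6a2 (-0.49, SE 0.20, limma adjusted p = 0.349) and Col7a1 (-1.33, SE 0.60, limma adjusted p = 0.386). Without LP replicate 1 and LPtau replicate 1, Col6a1 differed by -0.25 (limma adjusted p = 0.702) and Col1a1 by -0.08 (limma adjusted p = 0.920). All 7 fibrillar genes had a negative difference in LPtau against LP (median -0.26), where 37.7% of all genes above the median gene were positive (median -0.11). In LP against NP 6 of 7 fibrillar genes were positive with a median of 0.11, but without LP replicate 1 Col5a1 and Col5a2 turned to -0.049 and -0.0051. Col1a1 and Col1a2 differed by 0.22 (SE 0.30) and 0.19 (SE 0.17). Col4a1 differed by -0.15 (SE 0.22) in LP against NP and by -0.12 (SE 0.22) in LPtau against LP, and the second of these values turned positive, to 0.08, without the same 2 arrays. The mean of 11 fibroblast markers, taken from the NP mean, was -0.70, -0.26 and -0.06 in LPtau muscles and 0.59, -0.18 and -0.05 in LP muscles, and its part was not tested.

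The cartilage collagens were the most variable class in muscle. Their SD between arrays of a diet had a median of 1.22 over 8 genes, against 0.22 over all genes and 0.21 over the 7 fibrillar genes, and Col27a1 alone among them was low with 0.14. Col2a1 codes for type II collagen, the main fibril of cartilage. It was at 11.59, 12.61 and 11.58 in LPtau muscles, at 13.12, 12.59 and 7.36 in LP muscles, at 8.58, 10.97 and 8.09 in NPtau muscles, and at 7.29, 9.61 and 10.25 in NP muscles. Col9a1, a chain of the type IX collagen that decorates type II fibrils, was at 10.53, 9.97 and 9.60 in LPtau muscles, at 11.20, 10.77 and 5.26 in LP muscles, at 5.25, 8.27 and 4.03 in NPtau muscles, and at 4.58, 6.85 and 8.33 in NP muscles. LP replicates 1 and 2 and all LPtau muscles were high for both genes, while LP replicate 3 was among the lowest. Col11a1, a minor fibrillar chain inside type II fibrils, was at 10.40, 10.84 and 10.29 in LPtau muscles, at 11.38, 11.38 and 7.73 in LP muscles, at 9.62, 9.61 and 9.67 in NPtau muscles, and at 8.90, 10.26 and 9.65 in NP muscles. The LPtau muscles and LP replicates 1 and 2 were again the highest, and LP replicate 3 was the lowest of all. The NPtau muscles were level for Col11a1, while NPtau replicate 2 stood above the other NPtau muscles for Col2a1 and Col9a1.

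**Figure D4:**
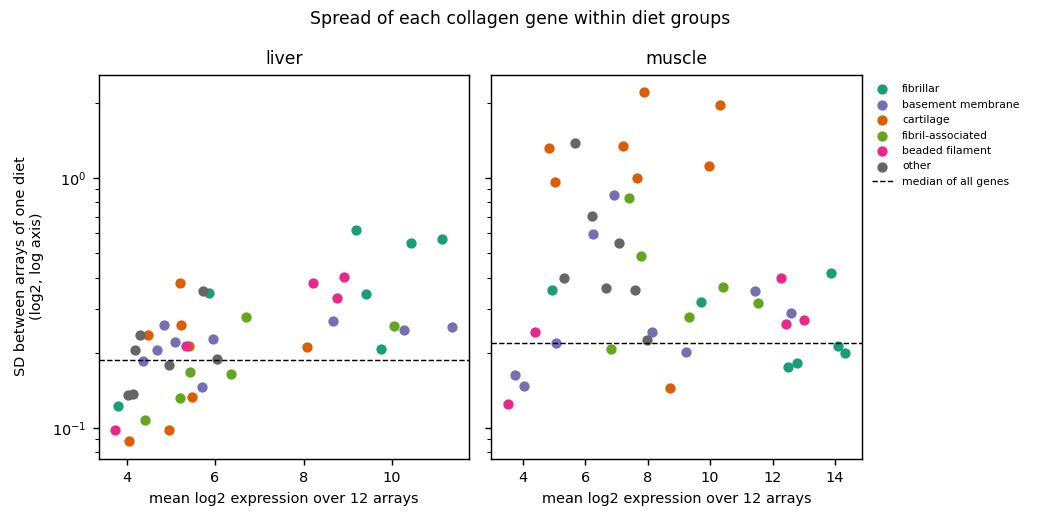
SD between arrays of a diet (y axis, log scale, in log2 units) against mean log2 expression over 12 arrays (x axis) for the 42 collagen genes in liver and muscle, coloured by class. The dashed line is the median of all genes, 0.19 in liver and 0.22 in muscle. Cartilage genes reach 2.21 in muscle, and type I and III genes are the highest in liver.

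In LP against NP muscle the 8 cartilage genes had positive differences, with a median of 1.37, and none passed. The sign of Col11a1 did not hold: it was -0.28 with array weights, -0.048 without LP replicate 1 and -0.049 without LP replicate 2. The difference was 1.97 for Col2a1 (SE 1.37, limma adjusted p = 0.701), 2.49 for Col9a1 (SE 1.54, limma adjusted p = 0.649), 1.83 for Col9a3 (SE 0.94, limma adjusted p = 0.549) and 0.56 for Col11a1 (SE 0.78, limma adjusted p = 0.887). The second probe set of Col9a1, with the lower mean in muscle, differed by 1.47 in LP against NP and by 0.56 in LPtau against LP. Col9a2, another type IX chain, was at 6.98, 7.17 and 4.005 in LP muscles and at 4.22, 4.25 and 4.43 in NP muscles, so that LP replicate 3 lay below all NP values. Its difference was 1.75 (SE 0.68, limma adjusted p = 0.365), and without LP replicate 3 Col9a2 passed with 2.78 (limma adjusted p = 0.0264). Col2a1 and Col9a1 were 0.92 and 1.43 without LP replicate 1, and 3.80 and 4.40 without LP replicate 3, and did not pass in either case. In LPtau against LP muscle 6 of 8 cartilage genes were positive, with a median of 0.48. Col2a1 differed by 0.91 (SE 1.37) and Col9a1 by 0.96 (SE 1.54) there, and without LP replicate 3 these became -0.92 and -0.95.

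Against NPtau the LPtau muscles had higher cartilage collagens with little overlap. The 3 LPtau values lay above the 3 NPtau values in 7 of 8 cartilage genes and in 12 of the 42 collagen genes (28.6%, against 6.6% of all genes). No gene passed in this comparison (0% of all genes), and 3 collagen genes had an unadjusted p under 0.05 (7.14%, against 5.45% of all genes). Col9a1 differed by 4.19 (SE 1.54, limma adjusted p = 0.737) and Col2a1 by 2.71 (SE 1.37, limma adjusted p = 0.737). Against NP, where 0% of all genes passed, 6 of 8 cartilage genes and 8 of the 42 collagen genes were higher in LPtau with no overlap (19%, against 5.12% of all genes). In the other direction Col3a1, Col4a2, Col6a2 and Col14a1 were lower with no overlap (9.52%, against 5.43% of all genes). There Col9a1 differed by 3.45 (SE 1.54, limma adjusted p = 0.840) and Col2a1 by 2.88 (SE 1.37, limma adjusted p = 0.840). Without LP replicate 1 and LPtau replicate 1 the difference in Col9a1 was 3.94 against NPtau and 3.20 against NP. The interaction in muscle had 0 called collagen genes and 0 with an unadjusted p under 0.05 (against 6.56% of all genes). The smallest p there belonged to Col4a4, a type IV chain of specialised basement membranes, which was at 4.45, 4.04 and 4.11 in LPtau muscles, at 3.97, 4.07 and 3.80 in LP muscles, at 4.10, 3.96 and 3.93 in NPtau muscles, and at 3.996, 4.201 and 4.02 in NP muscles (0.33, SE 0.19, limma adjusted p = 0.795).

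Markers of cartilage cells other than collagens moved over the same muscle arrays. The mean of 13 chondrocyte markers, taken from the NP mean, was 1.86, 1.83 and 1.35 in LPtau muscles, 2.47, 2.45 and -0.60 in LP muscles, -0.25, 0.79 and -0.50 in NPtau muscles, and -0.54, 0.19 and 0.35 in NP muscles. The high arrays were those with high Col2a1, Col9a1 and Col11a1, and the low LP array was replicate 3 for both sets. In LP against NP muscle 12 of 13 chondrocyte markers had a positive difference (median 1.47) and 0 were called, with the smallest p for the cartilage matrix protein Matn3 (2.11, SE 0.66, limma adjusted p = 0.251). The mean of 6 tendon markers was 0.00, 0.65 and 0.18 in LPtau muscles, 0.31, 0.51 and -2.57 in LP muscles, 0.61, -0.21 and 0.07 in NPtau muscles, and -0.38, 0.63 and -0.25 in NP muscles. The mean of 8 skeletal muscle markers was -0.40 to 0.02 in LPtau muscles, -0.69 to -0.13 in LP muscles, -0.57 to 0.04 in NPtau muscles and -0.04 to 0.02 in NP muscles. The part of cartilage in the collagen values of these hindleg samples was not tested.

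The 120 bases before the annotated starts of Col11a1 and Col9a1 are shown for the cartilage genes, since Col9a1 has starts 17.6 kilobases apart in the RefSeq table. Which start the probe sets of Col9a1 measure was not checked. Col11a1 is at chr3:114030420-114030539, the upstream Col9a1 start at chr1:24177490-24177609 and the downstream one at chr1:24195083-24195202, all on the plus strand of GRCm38.p6, and capitals mark the motifs named above.
Col11a1: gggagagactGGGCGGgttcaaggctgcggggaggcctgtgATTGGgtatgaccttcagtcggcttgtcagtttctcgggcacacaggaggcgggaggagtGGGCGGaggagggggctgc
Col9a1, upstream: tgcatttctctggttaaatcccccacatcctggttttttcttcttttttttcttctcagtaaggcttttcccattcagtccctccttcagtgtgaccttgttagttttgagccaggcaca
Col9a1, downstream: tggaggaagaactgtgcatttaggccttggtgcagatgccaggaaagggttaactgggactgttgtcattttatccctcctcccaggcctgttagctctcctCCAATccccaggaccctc
The stretch before the upstream Col9a1 start holds none of the motifs, which says only that these letters are not in it.

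**Figure D5:**
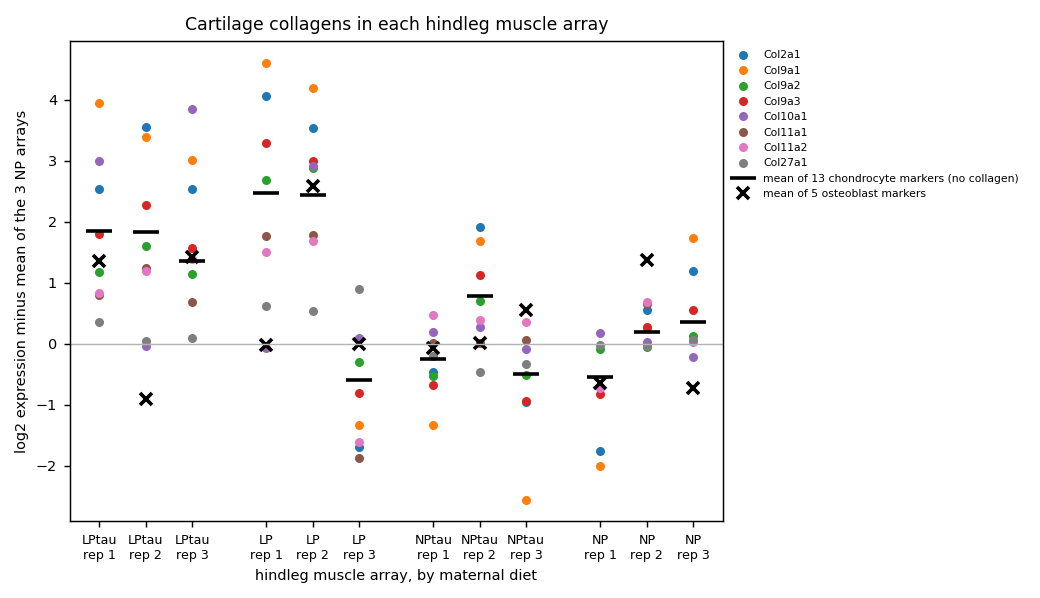
Log2 expression of the 8 cartilage collagens less their NP mean (y axis) in each hindleg muscle array (x axis), with the mean of 13 chondrocyte markers as a bar and the mean of 5 osteoblast markers as a cross. The LPtau arrays and LP replicates 1 and 2 have marker means of 1.35 to 2.47, and the other arrays have -0.60 to 0.79.

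Col10a1, the collagen of cartilage cells that enlarge before bone forms, had another pattern. It was at 6.98, 3.96 and 7.83 in LPtau muscles, at 3.92, 6.89 and 4.09 in LP muscles, at 4.18, 4.25 and 3.90 in NPtau muscles, and at 4.17, 4.02 and 3.77 in NP muscles. Only LPtau replicates 1 and 3 and LP replicate 2 were high. The mean of 5 osteoblast markers, taken from the NP mean, was 1.35, -0.91 and 1.42 in LPtau muscles, -0.02, 2.59 and -0.01 in LP muscles, -0.08, 0.01 and 0.56 in NPtau muscles, and -0.65, 1.38 and -0.73 in NP muscles. The arrays high for Col10a1 were among the 4 highest for these markers, and NP replicate 2 was high for the markers without Col10a1. The difference in Col10a1 was 2.27 in LPtau against NP (SE 0.93, limma adjusted p = 0.840), and the part of bone was not tested.

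Col17a1 and Col7a1, which anchor the epidermis to the layer below it, were each high in a few muscle arrays. Col17a1 was at 4.75, 4.90 and 6.49 in LPtau muscles, at 9.35, 5.16 and 5.71 in LP muscles, at 4.85, 6.49 and 4.55 in NPtau muscles, and at 5.62, 4.49 and 5.63 in NP muscles. The mean of 5 epidermis markers, taken from the NP mean, was -1.63, -2.35 and 2.16 in LPtau muscles, 4.57, -0.80 and -0.62 in LP muscles, -2.30, 2.36 and -2.06 in NPtau muscles, and 1.33, -2.35 and 1.01 in NP muscles. LP replicate 1 was the highest for both, and LPtau replicate 3 and NPtau replicate 2 came next. Col7a1 was at 6.53, 6.00 and 7.12 in LPtau muscles, at 9.02, 6.31 and 8.32 in LP muscles, at 6.47, 7.46 and 6.02 in NPtau muscles, and at 6.86, 6.33 and 6.68 in NP muscles. Col7a1 was thus also high in LP replicate 3, where the epidermis markers were below the NP mean. The differences in LP against NP were 1.50 for Col17a1 (SE 0.97, limma adjusted p = 0.667) and 1.26 for Col7a1 (SE 0.60, limma adjusted p = 0.497), and the part of skin in them was not tested.

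Muscle comparisons of NPtau with NP showed little. No gene was called (0% of all genes), and Col27a1 was the one collagen gene with an unadjusted p under 0.05 (2.38%, against 0.484% of all genes) and the one with no overlap, lower in NPtau (2.38%, against 3.14%). Col20a1, a fibril-associated collagen, was at 6.79, 7.06 and 6.77 in NPtau muscles and at 6.85, 6.69 and 6.52 in NP muscles (difference 0.19, SE 0.17, limma adjusted p = 1). In LPtau against NP muscle Col4a2 was at 10.39, 11.49 and 11.53 in LPtau muscles and at 11.78, 11.70 and 11.59 in NP muscles, with no overlap (difference -0.55, SE 0.26, limma adjusted p = 0.840). All 12 endothelial markers had a negative difference in LPtau against NP (median -0.61, 0 called), and their part was not tested. Of the genes that handle collagen, 0 of the 5 lists had a called gene in muscle in LP against NP or in LPtau against LP. The receptor subunit Itga1 had the smallest p among them in LP against NP (-0.94, SE 0.21, limma adjusted p = 0.109), and it differed by 0.67 in LPtau against LP (SE 0.21, limma adjusted p = 0.229).

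Whether the diets acted differently on the collagen genes of the tissues was tested in a fit of all 24 arrays, as the difference in liver less that in muscle. For LP against NP Col15a1 was the one collagen gene that passed (2.38%, against 1.97% of all genes). Its difference was 0.46 in liver, with LP at 5.22, 5.22 and 5.23 and NP at 4.75, 4.87 and 4.67, and it was -0.59 in muscle, with the values given above. The groups did not overlap in either tissue, and liver less muscle gave 1.05 (SE 0.26, limma adjusted p = 0.0417). Col15a1 lay below the median gene in liver. The call was lost when any of 8 of the 12 LP and NP arrays was left out, namely liver LP replicates 2 and 3, liver NP replicates 1 and 3, muscle LP replicate 1 and muscle NP replicates 1 to 3 (0.85 to 1.12, limma adjusted p from 0.0612 to 0.0997), and with a variance trend (0.0529) or sex as a covariate (0.0511). Col27a1 had -0.72 (SE 0.21, limma adjusted p = 0.0845) in the same test. For LPtau against LP 0.258% of all genes and 0 collagen genes passed, while 13 of the 42 had an unadjusted p under 0.05 (31%, against 14.4% of all genes). Those 13 were 5 fibrillar genes, Col4a1, Col4a2, Col6a1, Col6a2, Col6a3, Col14a1, Col16a1 and Col27a1, and all were positive. Among all genes above the median gene, LPtau minus LP was positive for 62.2% in liver and for 37.7% in muscle. The share of all genes that were positive in the test between tissues was not counted. Col5a2 had the smallest p, with 1.02 in liver, -0.30 in muscle and 1.32 for liver less muscle (SE 0.30, limma adjusted p = 0.0696). With the replicate number as a block Col5a2 passed (limma adjusted p = 0.0493). The labels do not say whether liver and muscle arrays of a number came from the same pup. Their deviations correlated by 0.02 to 0.20, above 0 in all 12 pairs, and the main fit took the 24 arrays as independent. Col1a1 had 1.91 (SE 0.56, limma adjusted p = 0.155) and Col6a1 had 1.54 (SE 0.42, limma adjusted p = 0.121). Their muscle differences were -0.60 and -0.73, and -0.08 and -0.25 without muscle LP replicate 1 and LPtau replicate 1. The fit of both tissues was not run without these 2 arrays.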

How the data were processed

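Total RNA was hybridised to single-channel Affymetrix mouse arrays. The authors deposited log2 values from RMA. The submitters' processing notes name R 2.7.0 and also MAS5, without a role. Per the labels, liver and muscle were normalized separately. No further normalization or filter on low values was applied. The number of arrays limits the precision, and so does the spread between arrays of a diet, which was wide for some classes. Gene symbols came from the annotation of the array platform, where 34945 of 45101 probe sets had 1 symbol. The 42 members, the collagen classes, 5 lists of genes that handle collagen and the lists of cell type markers were chosen with earlier results of these data known.

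Each tissue was fitted over 18193 genes using its 12 arrays and a mean for each of 4 diets, by the moderated test of limma 3.58.1 (R 4.3.3). Calls were made per contrast where the p adjusted after Benjamini and Hochberg was under 0.05, and "rose" and "fell" are used of those only. The tissues were compared on 24 arrays, with the probe set highest over all 24. The contrasts share arrays: LP enters LP minus NP and LPtau minus LP. With 3 arrays a group, 0.1 is the smallest two-sided p of an exact permutation test, so limma's pooled spread was used. SDs between arrays of a diet are residual SDs. Values per array were given for the main chains of each class, for called members and for the 3 members with the smallest p in a contrast. From the lists, called genes and those with the smallest p may be named. The fit was tested on simulated data. Promoters came from RefSeq (GRCm38.p6, 33 of 42 members). Alternatives were cyclic loess, a filter on low values, the replicate number as a block, only the groups compared, the mean over probe sets, a variance trend, sex as a covariate, array weights, leaving out each array, and leaving out the 2 arrays of a tissue that stand apart, which was added after seeing the data.

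Replicate numbers were checked for pairing by the correlation of deviations of arrays with the same number. It ran from -0.21 to 0.42 over 15 pairs in liver, from -0.44 to 0.34 over 15 pairs in muscle, and from 0.02 to 0.20 over 12 pairs of liver with muscle.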

Additional observations from a re-analysis of the deposited data

Results flagged for a closer look

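The difference between LP and NP in Col15a1 differed between the tissues, at 0.46 in liver and -0.59 in muscle. Liver less muscle was 1.05 (SE 0.26), and limma's adjusted p in the fit of all 24 arrays was 0.0417. The 3 LP values lay above the 3 NP values in liver and below them in muscle. In liver Col15a1 lay below the median gene, and 72.4% of all such genes were positive in LP against NP (median 0.11). The call was lost when any of 8 of the 12 LP and NP arrays was left out (adjusted p from 0.0612 to 0.0997 with limma), with a variance trend (0.0529) and with sex as a covariate (0.0511), and 9 of 19 alternatives kept it. The lowest value, 0.85, came without muscle LP replicate 1, which stood apart from the other arrays. No explanation was tested.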

How the results depend on the processing

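Only 3 arrays per diet limit every count below, and limma's calls of single collagen genes changed with small changes in the fit. The number of collagen genes called in LP against NP liver was 1, and it was 0 with only the groups compared, with the mean over probe sets, with sex as a covariate or without the 2 arrays that stand apart, and 13 with array weights. Leaving out single arrays gave 0 to 4, the highest without LP replicate 1. In LPtau against LP liver the count of 0 became 3 with array weights (Col4a1, Col4a2 and Col5a2). In LP against NP muscle the count of 0 became 1 with the mean over probe sets, 2 with array weights and 2 without the 2 arrays that stand apart, and 0 to 1 when arrays were left out in turn (1 without LP replicate 1 or LP replicate 3). In LPtau against LP muscle it became 1 with the mean over probe sets and 1 with array weights. For liver less muscle in LP against NP the count of 1 became 2 with the mean over probe sets, 0 with a variance trend, 0 with sex as a covariate and 4 with array weights, and ran from 0 to 5 when arrays were left out, the highest without muscle LP replicate 3. For liver less muscle in LPtau against LP the count of 0 became 1 with the replicate block and 2 with array weights, and ran from 0 to 3 when arrays were left out, the highest without liver LPtau replicate 1. The causes were not tested. The other 8 contrasts within a tissue had 0 collagen calls in every alternative run.

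Whether the replicate numbers pair the arrays was not settled. Arrays of the same number correlated above 0.1 in 5 of 15 pairs in liver and 6 of 15 in muscle, and negatively in others. With the replicate block, LP against NP liver had 1 call and the other contrasts within a tissue had 0, as without it. The added call for liver less muscle was Col5a2 (1.32, adjusted p = 0.0493 with limma).

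Some differences turned sign, among them Col2a1 (0.91) and Col9a1 (0.96) in LPtau against LP muscle and Col11a1 (0.56) in LP against NP muscle. With array weights Col11a1 in LPtau against LP liver was -0.030, Col11a1 and Col5a1 in LP against NP muscle were -0.28 and -0.0100, and Col4a1 and Col4a2 in LPtau against LP muscle were 0.040 and 0.031. Without the 2 arrays that stand apart Col2a1 in LPtau against LP liver was 0.080, Col11a1, Col5a1 and Col5a2 in LP against NP muscle were -0.048, -0.049 and -0.0051, and Col4a1 and Col4a2 in LPtau against LP muscle were 0.083 and 0.081. With cyclic loess Col3a1 in NPtau against NP muscle was 0.036. When single arrays were left out, the ranges in liver were -0.091 to 0.19 for Col18a1 and -0.43 to 0.038 for Col1a1 in LP against NP, and -0.12 to 0.41 for Col11a1, -0.22 to 0.080 for Col2a1 and -0.077 to 0.17 for Col15a1 in LPtau against LP. In muscle they were -0.30 to 0.00076 for Col3a1 in NPtau against NP, -0.049 to 1.78 for Col11a1, -0.049 to 0.16 for Col5a1 and -0.0051 to 0.26 for Col5a2 in LP against NP, and -0.87 to 0.96 for Col11a1, -0.92 to 1.95 for Col2a1, -0.95 to 2.02 for Col9a1, -0.25 to 0.11 for Col4a1 and -0.44 to 0.13 for Col4a2 in LPtau against LP.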
